A study of Apis mellifera with 12 samples.

Results

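Described here are 36 genes of the honey bee (Apis mellifera) whose transcripts were more abundant in the brain of every mated queen than in the brain of any CO2-treated or virgin queen. The queens were sisters from a single colony of Australian commercial stock, mainly of ligustica descent, and 4 queens of each of 3 treatments gave 1 brain library each. Treatment began when the queens were 6 days old. Mated queens had flown and come back carrying a mating plug. CO2-treated queens were narcotised with CO2 for 10 minutes on day 6 and again on day 7. Virgin queens were caged beside them without narcosis. All queens were killed at 8 days of age, and all belong to that one colony, so the spread between queens is that between sisters. At dissection by the study, mated queens had active ovaries and semen, and queens of the other treatments had neither eggs nor semen. Caging at treatment is described for CO2-treated and virgin queens and not for mated queens. Flight, copulation, stored semen, ovary activation and the difference in caging therefore cannot be told apart in the mated queens.

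The genes were chosen by their values in these same 12 libraries. Values are CPM (counts in 1e+06 counts of a library) after scaling by TMM factors, which correct for a few genes that take a large share of the counts. A gene entered the set if its mean over the 12 queens was at least 1 CPM, if its lowest mated queen had at least 1.5 times the CPM of the highest of the other 8 queens, and if the ranges of CO2-treated and virgin queens overlapped. Of 15314 genes in the table, 13038 had at least 10 counts in all and were examined, 10893 of these had a mean of at least 1 CPM, and 36 met every condition. The last condition removed 0 genes. A further 10 genes passed the gap at a mean below 1 CPM and were left out. Since the choice fixed that the mated queens are higher, the differences below are descriptions and were not tested as findings.

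Honey bee queens keep the sperm from their mating flights in a storage organ and draw on it to fertilise eggs for years. Egg laying draws on yolk protein, lipid and sugar that the fat body, the insect counterpart of liver and adipose tissue, releases into the blood, and fat body cells also lie inside the head around the brain. Narcosis with CO2 is used by beekeepers to bring unmated queens into lay, and so serves as a treatment without flight, copulation or semen. Small secreted carrier proteins, namely odorant binding proteins, chemosensory proteins and the takeout-type proteins that include juvenile hormone binding proteins, move hydrophobic molecules such as odours, pheromones, lipids and hormones through insect fluids. Cytochrome P450 enzymes oxidise hormones, fatty acids and foreign compounds.

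The libraries held between 12434733 and 20677514 counts on genes, so that 3 counts, taken as the smallest detectable level, corresponded to 0.145 to 0.241 CPM before TMM scaling, which covers counting error only. TMM factors were 1.03, 0.715, 0.556 and 0.658 in mated queens 1, 4, 6 and 7, against 1.06 to 1.37 in the other 8 queens. The names of mated queen 1, CO2-treated queens 1 and 2 and virgin queen 1 end in br, which the labels do not explain, and results without these 4 libraries are given below. Transcripts of fat body were measured beside the set, since fat body lies beside the brain in the head. The fat body, muscle, hemocyte and photoreceptor genes used here come from the study's lists of genes that differed between these same libraries. Their differences are therefore no independent measure of these tissues and cells. Of 3 fat body genes outside the set, GB54507, matched to the lipid carrier RfaBp, had 9567, 17061, 22237 and 19367 CPM in mated queens 1, 4, 6 and 7, against 5489, 6369, 8516 and 7769 CPM in CO2-treated queens 1, 2, 5 and 7 and 4659, 2146, 7084 and 5269 CPM in virgin queens 1, 2, 4 and 6, and its mated queens lay above all others. All mated queens lay above all others in 1.6% of the 13038 genes examined. The 2 genes matched to the fly storage protein Lsp2 overlapped between groups. GB51698 had 169 to 2928 CPM in mated, 38.5 to 255 CPM in CO2-treated and 19.0 to 56.5 CPM in virgin queens, and GB51697 had 14.9 to 136 CPM in mated, 6.19 to 29.8 CPM in CO2-treated and 13.8 to 24.9 CPM in virgin queens. Summed over the 3 genes, a level made up mostly of RfaBp, mated queens had 9752 to 25301 CPM, CO2-treated queens 5557 to 8666 CPM and virgin queens 2200 to 7148 CPM. None of the 3 genes was at 0 in any queen, and the part of fat body RNA in the values below was not tested. Sums overlapped between groups for 13 muscle genes, with 1197 to 17481 CPM in mated, 1008 to 8767 CPM in CO2-treated and 1100 to 5888 CPM in virgin queens. For 2 hemocyte genes, Hml and srp, they were 843 to 2647 CPM in mated, 775 to 3328 CPM in CO2-treated and 319 to 1446 CPM in virgin queens, and for 8 photoreceptor genes 71.2 to 267 CPM in mated, 86.2 to 192 CPM in CO2-treated and 155 to 867 CPM in virgin queens. Markers of neurons and glia were not analysed here, since their names were not paired with the identifiers of the table. In whole brains, more cells of a type and more RNA per cell cannot be told apart.

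**Figure D1:**
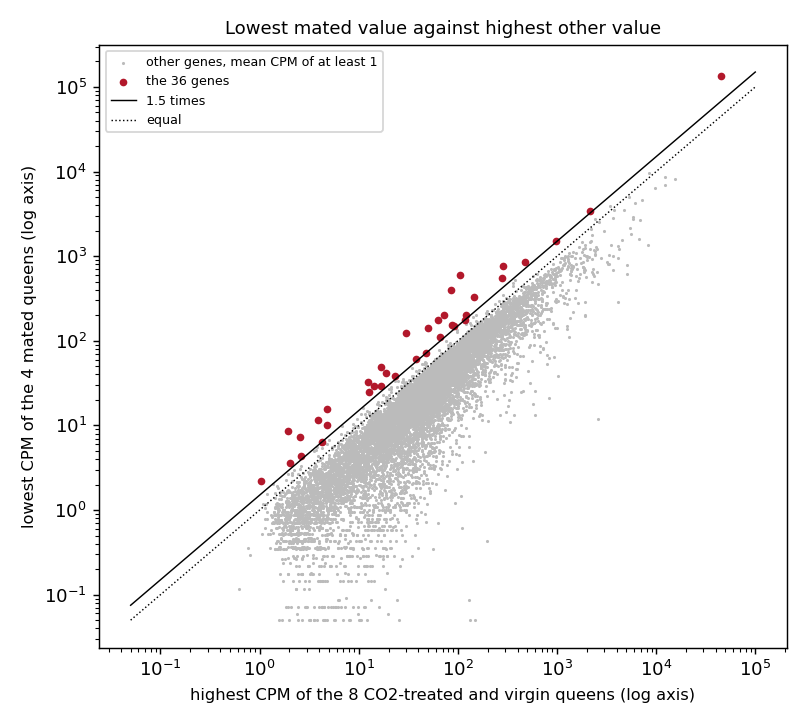
For each gene with a mean of at least 1 CPM, the lowest CPM of the 4 mated queens (vertical log axis) is plotted against the highest CPM of the 8 CO2-treated and virgin queens (horizontal log axis), with values under 0.05 CPM drawn at 0.05. The 36 genes, in red, lie on or above the solid line that marks 1.5 times, and 144 other genes lie between it and the dotted line of equal values.

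All 4 mated queens lay above all 8 other queens in 180 genes with a mean of at least 1 CPM, and 36 of them did so by the required 1.5 times. Over the 13038 genes examined, 1.6% had all mated queens above the others at any gap, and 0.353% passed the gap of 1.5 times. Among the 36 genes the lowest mated value was between 1.51 and 5.64 times the highest other value, with a median of 2.08, and it was at least 2 times in 20 genes and at least 3 times in 6. The mean of mated queens was 2.49 to 66.8 times the mean of the other 8 queens, with a median of 6.78. Just inside the limit lay GB42607 (Cyt-b5) at 1.53, GB54888 (CG1942) at 1.51 and GB41188 (CG33970) at 1.51, and just outside it GB51056 at 1.49, GB55264 (CG15040) at 1.48 and GB52955 (CG12206) at 1.47. GB51056 had 2.05, 2.31, 2.35 and 2.17 CPM in mated queens, against 1.38, 0.884, 1.27 and 1.03 CPM in CO2-treated queens and 1.23, 0.395, 0.899 and 0.717 CPM in virgin queens (in the order of queens given below for GB49544). GB52955 had 20.7, 24.7, 25.9 and 16.2 CPM in mated queens, against 10.7, 8.89, 11 and 6.63 CPM in CO2-treated queens and 9.43, 2.61, 4.94 and 8.04 CPM in virgin queens.

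In edgeR's quasi-likelihood fit to all 12 queens, with Benjamini-Hochberg adjustment over the 13038 genes and a threshold of 0.05, 32 of the 36 genes passed as higher in mated than in virgin queens, where 0.951% of all genes did and 0.253% passed as lower. In mated against CO2-treated queens 26 of the 36 passed as higher, where 0.522% of all genes did and 0.138% passed as lower. Both comparisons use the same mated queens and the values that chose the genes, so nothing is read from these counts. The median fitted log2 fold change of the set was 2.90 in mated against virgin queens (1.19 to 6.66) and 2.63 in mated against CO2-treated queens (1.45 to 5.80), beside medians of -0.08 and -0.03 over all genes. The 26 genes that passed against CO2-treated queens all passed against virgin queens too, 6 passed against virgin queens alone, and 4 passed in neither comparison, namely GB49544, GB47279 (Cyp6g2), GB42607 and GB41188. In CO2-treated against virgin queens 0 of the 36 passed with edgeR, with DESeq2 or with edgeR's exact test, and 1 had an unadjusted p under 0.05 with edgeR, where 0.0153% of all genes passed as higher and 0% as lower.

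**Figure D2:**
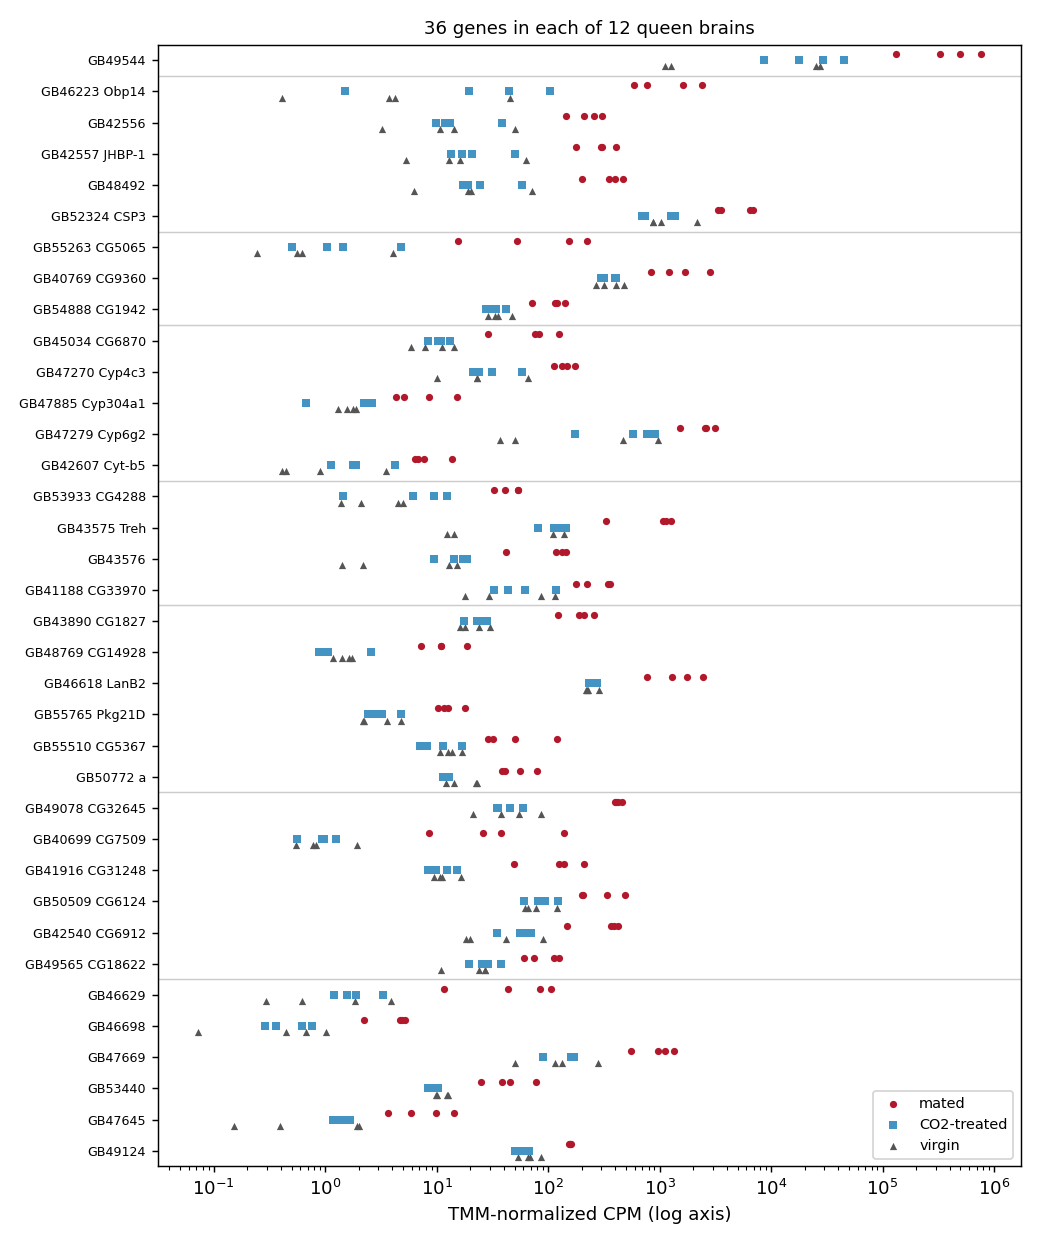
Each row is 1 of the 36 genes, grouped by role (GB42556, GB48492 and GB43576, which have no known role, stand beside the genes they vary with), and each point is 1 queen's CPM on a log axis, with mated queens as red circles, CO2-treated queens as blue squares and virgin queens as grey triangles. The 4 red circles lie to the right of all other points in every row, from GB46698 with 2.23 to 5.22 CPM to GB49544 with 133250 to 769172 CPM in mated queens.

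The most abundant gene by far was GB49544, for which the tables used here give neither a name nor a fly ortholog. It had 133250.0, 324482, 769172 and 499055 CPM in mated queens, against 8672, 29134, 17955 and 44905 CPM in CO2-treated queens and 1259, 1118, 25150.0 and 27225 CPM in virgin queens (mated queens 1, 4, 6 and 7, CO2-treated queens 1, 2, 5 and 7 and virgin queens 1, 2, 4 and 6, an order kept for all lists below). Every mated queen lay above every other queen, virgin queens 4 and 6 lay near the CO2-treated queens, and virgin queens 1 and 2 lay far below them. Its share of all counts was 13.7%, 23.2%, 42.7% and 32.9% in mated queens, against 1.12% to 5.02% in CO2-treated and 0.153% to 2.89% in virgin queens. The other 35 genes together took 1.13% to 1.37% of the counts of mated queens, against 0.266% to 0.428% in CO2-treated and 0.267% to 0.553% in virgin queens. The lowest mated queen had 2.97 times the highest other queen, yet GB49544 passed in neither comparison, and its highest value was 5.77 times its lowest among mated queens and 40.2 times among the others.

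Among the carriers of small molecules, the widest gap of the set belonged to GB46223, which RefSeq names Obp14 and the study pairs with the fly odorant binding protein Obp56d. It had 774, 592, 1607 and 2411 CPM in mated queens, against 1.5, 19.6, 45.0 and 105 CPM in CO2-treated queens and 0.410, 4.24, 3.76 and 45.1 CPM in virgin queens. No mated queen came within 5.64 times of the highest other queen, CO2-treated queen 7. The mean was 1346 ± 836 CPM in mated, 42.8 ± 45.1 CPM in CO2-treated and 13.4 ± 21.2 CPM in virgin queens (SD, n = 4 each), a 47.9-fold difference between mated queens and the mean of the other 8. Among those 8, values spread 256-fold, the widest spread of any of the 36 genes, with CO2-treated queen 1 and virgin queen 1 at the bottom.

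GB42557 is named JHBP-1 in RefSeq and paired with fly CG13618, a member of the takeout-type family of juvenile hormone binding proteins. It had 306, 409, 297 and 177 CPM in mated queens, against 17.1, 13.6, 50.1 and 20.8 CPM in CO2-treated queens and 13.0, 16.1, 5.28 and 62.8 CPM in virgin queens. GB42556, whose number precedes it and which has no ortholog listed, had 259, 302, 211 and 143 CPM in mated queens, against 11.9, 9.93, 38.3 and 13.1 CPM in CO2-treated queens and 14.2, 10.7, 3.26 and 50.1 CPM in virgin queens. GB48492, also without an ortholog, had 402, 468, 354 and 200.3 CPM in mated queens, against 19.3, 17.4, 57.7 and 24.4 CPM in CO2-treated queens and 20.2, 19.3, 6.23 and 72.0 CPM in virgin queens. In all 3 genes mated queen 4 was highest and mated queen 7 lowest among mated queens, CO2-treated queen 5 and virgin queen 6 stood above the rest of their groups, and virgin queen 4 was lowest of all. The ratio of GB42556 to GB48492 stayed between 0.523 and 0.716 over the 12 queens, and that of GB42557 to GB48492 between 0.645 and 0.886, while over all 630 pairs of the 36 genes the highest ratio was, in the median pair, 15.6 times the lowest. Over the 8 other queens the levels themselves spread 11.6-fold to 15.4-fold. Whether any of GB42556, GB42557 and GB48492 overlap or share reads was not analysed here. The sources do not say whether the counting used strand, so the values of these 3 genes are uncertain as separate genes.

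**Figure D3:**
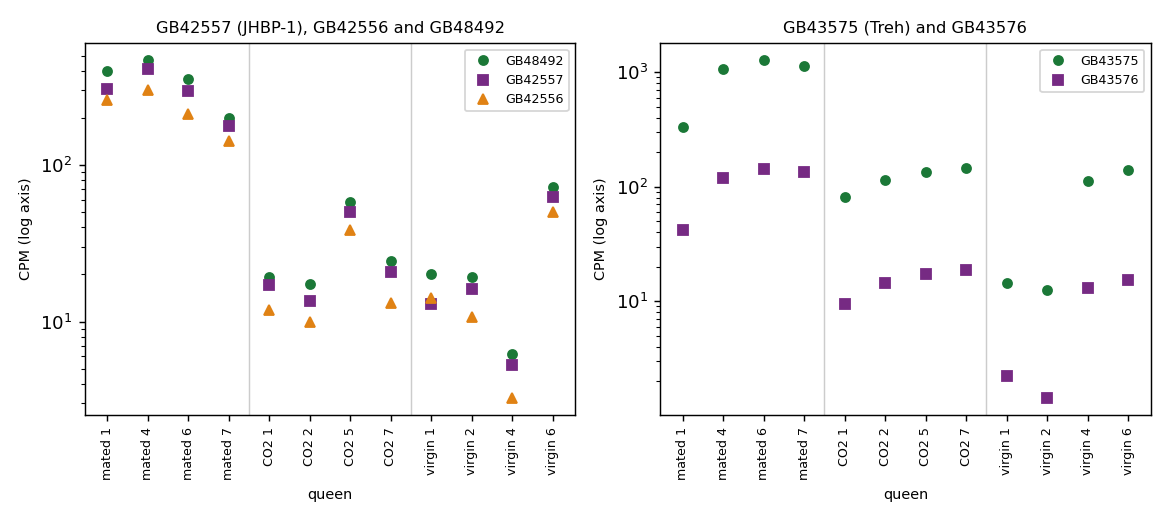
CPM (log axis) in each of the 12 queens, with mated, CO2-treated and virgin queens from left to right, of GB48492, GB42557 and GB42556 (left panel) and of GB43575 and GB43576 (right panel). Within a panel the points of a queen move up and down together: the ratio of GB43575 to GB43576 stays between 6.49 and 9.11.

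The chemosensory protein CSP3, GB52324, paired with fly PebIII, was the second most abundant of the 36 genes. It had 3376, 6528, 6819 and 3583 CPM in mated queens, against 741, 1371, 1275 and 699.6 CPM in CO2-treated queens and 879, 868, 1019.9 and 2169.9 CPM in virgin queens. Mated queens 4 and 6 stood well above mated queens 1 and 7, and among the others virgin queen 6 stood apart at 2170 CPM. The mean in mated queens was 4.5 times that of the other 8 queens.

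Genes of lipid and carbonyl metabolism came next. GB55263 is paired with fly CG5065, a putative fatty acyl-CoA reductase, a type of enzyme that turns activated fatty acids into fatty alcohols for waxes and pheromones. It had 15.7, 52.3, 223 and 153 CPM in mated queens, against 0.500, 1.04, 1.44 and 4.80 CPM in CO2-treated queens and 0.564, 0.247, 0.618 and 4.09 CPM in virgin queens, and its mean in mated queens was 66.8 times that of the others, the largest such ratio of the set. Mated queen 1 had the lowest of the mated values but 3.27 times the highest other value, and CO2-treated queen 7 and virgin queen 6 stood above the rest of their groups. The gene with the next number, GB55264 (fly CG15040), fell just outside the set with 5.62, 9.52, 26.0 and 19.2 CPM in mated queens, against 2.38, 1.98, 3.12 and 2.02 CPM in CO2-treated queens and 2.20, 3.60, 2.19 and 3.8 CPM in virgin queens, and its mated queens took the same order 6, 7, 4 and 1. GB40769 is paired with fly CG9360, of the short-chain dehydrogenase and reductase family. It had 845, 1693, 2805 and 1213 CPM in mated queens, against 300.1, 317, 405 and 397 CPM in CO2-treated queens and 409, 317, 269.8 and 477 CPM in virgin queens. GB54888 is paired with fly CG1942, an acyltransferase of the type that makes triglycerides. It had 71.8, 142, 116 and 119 CPM in mated queens, against 41.8, 27.5, 34.1 and 32.9 CPM in CO2-treated queens and 35.5, 47.5, 33.1 and 28.9 CPM in virgin queens, the narrowest gap but one in the set, with virgin queen 2 at 47.5 CPM against mated queen 1 at 71.8 CPM.

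The set held 3 cytochrome P450 genes and 2 genes of the cytochrome b5 type, small haem proteins that pass electrons to P450 and fatty acid enzymes. GB47279, paired with fly Cyp6g2, had 1528, 2539.6, 2598 and 3159.6 CPM in mated queens, against 173, 580.2, 901 and 777 CPM in CO2-treated queens and 37.4, 50.2, 466 and 973 CPM in virgin queens. The highest of the others were virgin queen 6 and CO2-treated queen 5, virgin queens 1 and 2 were far below all the rest, and the 8 queens spread 26.0-fold. GB47270, paired with Cyp4c3, had 149, 112, 173 and 133 CPM in mated queens, against 23.9, 21.2, 57.9 and 31.4 CPM in CO2-treated queens and 23.3, 23.1, 10.1 and 66.1 CPM in virgin queens. Its mated queens stayed within 1.54-fold of each other, and CO2-treated queen 5 and virgin queen 6 were again the highest of their groups. GB47885, paired with Cyp304a1, was low throughout, with 5.10, 8.58, 4.35 and 15.3 CPM in mated queens, against 2.31, 0.676, 2.25 and 2.64 CPM in CO2-treated queens and 1.90, 1.58, 1.29 and 1.79 CPM in virgin queens. GB45034, paired with fly CG6870 of the cytochrome b5 type, had 29.2, 125, 76.1 and 83.4 CPM in mated queens, against 8.44, 10.3, 10.9 and 13.1 CPM in CO2-treated queens and 7.84, 5.92, 14.4 and 11.1 CPM in virgin queens. Mated queen 4 was its highest and mated queen 1 its lowest, at 2.03 times the highest other value. GB42607, paired with Cyt-b5, had 7.68, 13.8, 6.44 and 6.77 CPM in mated queens, against 1.13, 1.77, 1.91 and 4.21 CPM in CO2-treated queens and 0.410, 0.444, 0.899 and 3.52 CPM in virgin queens, with mated queens 1, 6 and 7 close together below mated queen 4.

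GB43575 is paired with fly Treh, trehalase, the enzyme that splits trehalose, the main blood sugar of insects, into glucose. It had 331, 1076, 1272 and 1132 CPM in mated queens, against 81.8, 114, 135 and 146 CPM in CO2-treated queens and 14.3, 12.4, 111 and 139 CPM in virgin queens. Mated queens 4, 6 and 7 lay close together and mated queen 1 below them at 2.27 times the highest other queen, the 4 CO2-treated queens lay close to each other, and virgin queens 1 and 2 fell below all others. GB43576, which carries the next number and has no ortholog listed, had 41.5, 119, 144 and 134 CPM in mated queens, against 9.38, 14.4, 17.3 and 18.8 CPM in CO2-treated queens and 2.20, 1.43, 13.0 and 15.2 CPM in virgin queens. The ratio of GB43575 to GB43576 stayed between 6.49 and 9.11 in all 12 queens, and here too overlap or shared reads were not analysed. Both passed the quasi-likelihood threshold against virgin queens and not against CO2-treated queens. GB41188 is paired with fly CG33970, a transporter of the ABC family. It had 178, 359, 225 and 347 CPM in mated queens, against 32.5, 118, 43.8 and 61.8 CPM in CO2-treated queens and 29.7, 18, 87.0 and 116 CPM in virgin queens, with CO2-treated queen 2 and virgin queen 6 just below the limit. GB53933, paired with fly CG4288, had 32.6, 54.0, 40.6 and 53.6 CPM in mated queens, against 1.44, 9.41, 6.18 and 12.5 CPM in CO2-treated queens and 2.10, 1.38, 4.55 and 4.95 CPM in virgin queens. Its mated queens stayed within 1.65-fold of each other, and its mean in CO2-treated queens was above that in virgin queens, by 1.18 on the log2 scale of means.

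A further 6 genes are paired with fly genes of the extracellular matrix, signalling or hydrolysis or with the fly gene a. GB46618, paired with LanB2, a chain of the laminin of basement membranes, had 772, 1301, 2452 and 1768 CPM in mated queens, against 235, 276, 242 and 255 CPM in CO2-treated queens and 230.3, 218, 284 and 225 CPM in virgin queens. The 8 other queens stayed within 1.30-fold of each other, the narrowest spread among them of any of the 36 genes, while the mated queens spread 3.18-fold from queen 1 to queen 6. GB43890, paired with CG1827, an enzyme that cleaves the sugar link of glycoproteins, had 123, 188, 259 and 209.5 CPM in mated queens, against 17.7, 22.9, 28.4 and 24.8 CPM in CO2-treated queens and 18.1, 30, 16.2 and 24.2 CPM in virgin queens. GB48769, paired with CG14928, a spätzle-type ligand of the Toll family of receptors in the fly, had 10.8, 7.28, 18.6 and 10.9 CPM in mated queens, against 1.06, 0.884, 0.981 and 2.55 CPM in CO2-treated queens and 1.18, 1.43, 1.74 and 1.65 CPM in virgin queens. All 4 mated queens of GB43890 lay 4.09 times or more above the highest other queen, and those of GB48769 2.85 times or more, CO2-treated queen 7 being the highest of its others. GB55765, paired with Pkg21D, a cGMP-dependent protein kinase, had 10.3, 12.8, 18 and 11.6 CPM in mated queens, against 2.44, 4.78, 3.23 and 2.73 CPM in CO2-treated queens and 4.82, 2.22, 2.19 and 3.59 CPM in virgin queens. GB55510, paired with CG5367, a cysteine protease of the cathepsin L type, had 28.9, 32.2, 119.8 and 50.3 CPM in mated queens, against 16.9, 11.3, 7.16 and 8.16 CPM in CO2-treated queens and 17.0, 10.7, 13.7 and 12.6 CPM in virgin queens, with mated queen 6 far above the other mated queens. GB50772, paired with the fly gene a, had 41.4, 55.7, 79.8 and 38.4 CPM in mated queens, against 12.2, 12.1, 12.9 and 11.5 CPM in CO2-treated queens and 23.1, 14.3, 12.1 and 22.4 CPM in virgin queens, and its mean was lower in CO2-treated than in virgin queens by 0.56 on the log2 scale, the lowest such value of the set.

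For 6 genes a fly ortholog is listed whose role is not described here. GB49078 (CG32645) was even among mated queens, with 456, 398, 408 and 424 CPM in mated queens, against 35.8, 34.7, 59.8 and 45.2 CPM in CO2-treated queens and 55.0, 37.7, 21.3 and 85.8 CPM in virgin queens. The lowest mated queen had 4.63 times the highest other queen and the mated queens stayed within 1.15-fold. GB40699 (CG7509) was the opposite case, with 8.50, 37.9, 139 and 26.2 CPM in mated queens, against 0.563, 0.936, 0.981 and 1.3 CPM in CO2-treated queens and 0.820, 0.543, 0.786 and 1.94 CPM in virgin queens. Every mated queen lay at least 4.39 times above every other queen, yet mated queen 6 had 16.4 times the level of mated queen 1, the widest spread among mated queens in the set. GB41916 (CG31248) had 49.6, 138, 212 and 125 CPM in mated queens, against 12.4, 8.42, 15.3 and 9.95 CPM in CO2-treated queens and 16.7, 9.57, 11.2 and 10.8 CPM in virgin queens, with mated queen 1 again lowest. GB42540 (CG6912) had 149 to 420.2 CPM in mated queens and 18.4 to 90.8 CPM in the other 8 queens, and GB50509 (CG6124) had 202 to 487 CPM in mated queens and 61.1 to 122 CPM in the other 8 queens. GB49565 (CG18622) had 61.2 to 126 CPM in mated queens and 11 to 38.0 CPM in the other 8 queens.

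Beside GB49544, GB42556, GB48492 and GB43576, 6 genes had no fly ortholog listed. GB49124 had 158, 159.8, 154 and 158 CPM in mated queens, against 50.0, 57.7, 66.9 and 55.8 CPM in CO2-treated queens and 65.9, 69.0, 53.5 and 86.8 CPM in virgin queens. Its mated queens differed by 1.04-fold, the least of the set, with a coefficient of variation of 1.65%, so that its 2.49-fold difference of means, the smallest of the 36, came with the most even values. GB46629 had 11.7, 44.1, 105 and 84.3 CPM in mated queens, against 1.56, 1.20, 3.29 and 1.88 CPM in CO2-treated queens and 0.615, 0.296, 1.85 and 3.87 CPM in virgin queens, a 33.7-fold difference of means with mated queen 1 lowest. GB47669, one of the 10 most abundant of the set in mated queens, had 559, 1342, 961 and 1115 CPM in mated queens, against 89.3, 167, 161 and 171 CPM in CO2-treated queens and 116, 50.0, 133 and 278 CPM in virgin queens. GB53440 had 25.0 to 77.6 CPM in mated queens and 8.37 to 12.6 CPM in the other 8 queens, and its ratio to GB40769 varied by no more than 1.63-fold over the 12 queens. GB46698 had 2.23 to 5.22 CPM in mated queens and 0.0717 to 1.02 CPM in the other 8 queens, where the lowest, virgin queen 6, rested on 1 count. GB47645 had 3.63 to 14.4 CPM in mated queens and 0.154 to 2.02 CPM in the other 8 queens, where virgin queen 1 rested on 3 counts.

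The mated queens were not alike over the 36 genes. The highest mated value was 2.40 times the lowest in the median gene, under 2 times in 6 genes and over 5 times in 4, beside a median of 1.80 over all genes with a mean of at least 1 CPM. Mated queen 1 was the lowest of the mated queens in 24 of the 36 genes, where it was lowest in 29.6% of those background genes, and mated queen 6 was the highest in 20, where it was highest in 24.4%. The order of queens 6, 7, 4 and 1 that GB49544 showed was shared by 11 genes, GB49544 included, and RfaBp (GB54507), outside the set, took the same order. Mated queen 1 is also the only mated queen with br in its name. Among the other 8 queens, values spread 4.48-fold in the median gene, under 2-fold in 8 genes and over 10-fold in 13, beside 2.25-fold over the background genes. The highest of the 8 was virgin queen 6 in 14 genes and CO2-treated queen 7 in 10, where these queens were highest in 21% and 4.31% of the background genes.

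The means of CO2-treated and virgin queens lay close together for most of the 36 genes. They were within 1.5-fold in 29 genes, and in the other 7 the CO2-treated mean was the higher one, by 1.68 on the log2 scale of means for GB46223, 1.18 for GB53933, 0.91 for GB43576, 0.88 for GB49544, 0.78 for GB43575, 0.77 for GB42607 and 0.67 for GB47279. In each of these 7 the ranges of CO2-treated and virgin queens overlapped, as the choice of genes required, and none passed the test. The CO2-treated mean was above the virgin mean in 23 genes and below it in 13, and the median log2 ratio of means was 0.07. The median fitted log2 fold change was 0.07 in the set and -0.02 over all genes. How many of all genes had means within 1.5-fold was not counted, so the closeness is not read as a trait of the set. Over all 13038 genes, the 4 CO2-treated queens lay above all virgin queens in 2.05% and the virgin queens above all CO2-treated queens in 2.39%.

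**Figure D4:**
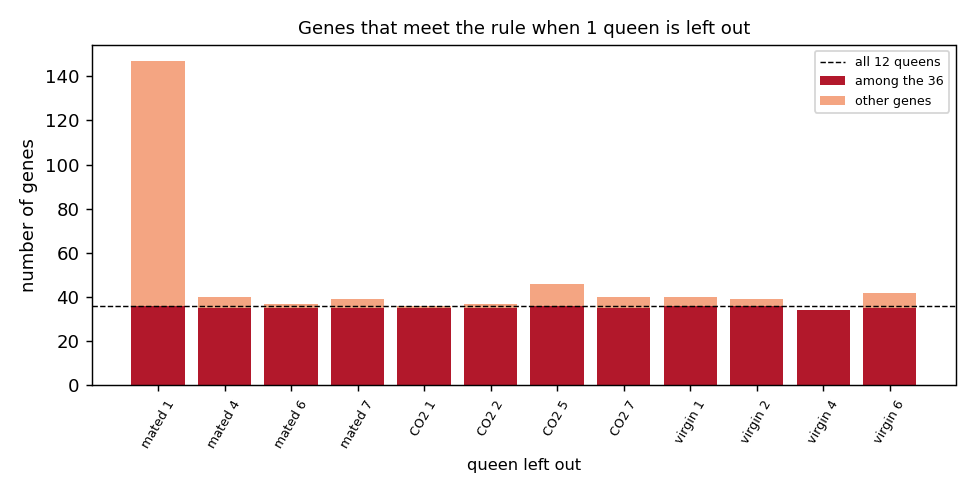
Number of genes that meet the same conditions when the queen named on the horizontal axis is left out, split into genes of the set (dark red) and others (light red), with a dashed line at the 36 genes of all 12 queens. The count is 147 without mated queen 1 and between 34 and 46 without any other queen. Leaving out a queen can only widen a gap, apart from changes in scaling, so most of the set stays by construction. A gene can still be lost when CO2-treated and virgin queens no longer overlap.

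The size of the set rested on mated queen 1. Without it, 147 genes met the conditions, namely the 36 and 111 others, and without any one of the other 11 queens 34 to 46 did, of which 34 to 36 belonged to the set. Of the 36 genes, 29 were kept whichever single queen was left out, 6 were lost once, and GB41188 was lost without mated queen 4, 6 or 7. The 6 were lost because CO2-treated and virgin queens no longer overlapped, so their place in the set rested on 1 queen. These were GB53933 without CO2-treated queen 1, GB47885 without CO2-treated queen 2 and GB48769 without CO2-treated queen 7. The others were GB42607 without virgin queen 6, and GB46618 and GB50772 without virgin queen 4. Leaving out a queen can only widen the gap of a gene, apart from small changes in scaling. That most of the set was kept was therefore close to fixed in advance and is no measure of its stability. Without the 4 queens with br in their names, an alternative chosen after seeing the data, 146 genes met the conditions, 32 of them in the set. GB43576, GB47885, GB53933 and GB55510 were then lost, their CO2-treated and virgin queens no longer overlapping. With library totals in place of TMM factors, 22 genes met the conditions, all of them in the set, and the genes lost included CSP3 (GB52324), GB54888, GB49124 and 4 of the 5 cytochrome genes (GB47270, GB47279, GB47885 and GB42607). The counts that passed the quasi-likelihood test also turned on single queens, in the set and over all genes. Counts over all genes, higher or lower, follow in brackets. With all queens, 32 of the 36 passed against virgin (157) and 26 against CO2-treated queens (86). Against virgin queens 14 passed without virgin queen 2 (28) and 15 without mated queen 6 (37). There 21 passed without mated queen 7 (52), virgin queen 1 (64) or virgin queen 4 (77). Against CO2-treated queens 11 passed without CO2-treated queen 1 (22), 15 without mated queen 4 (32) and 17 without CO2-treated queen 5 (40). There 12 passed without mated queen 6 (24) or 7 (18) or CO2-treated queen 2 (28) or 7 (21). Without the 4 queens with br in their names, which leaves 2 CO2-treated queens, 22 (97) passed against virgin and 2 (5) against CO2-treated queens. With br as a term of the fit, also chosen after seeing the data, 34 (255) and 25 (78) did.

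Genes of the same roles outside the set were counted from lists whose identifiers come from the study's own comparisons of these libraries. Their direction, the number that passed and the size of their fold changes are therefore not independent evidence. Shares and medians over all genes are printed for scale only, since genes at large were not selected in this way. Genes of the set were left out of these counts, which stand beside 0.951% of all genes that passed as higher in mated than in virgin queens and 0.522% that passed as higher in mated than in CO2-treated queens. Of 14 other carrier genes, GB46226 (Obp56g) and GB52326 (PebIII) passed as higher and GB53372 (Pbprp2) as lower against virgin queens, and 0 passed against CO2-treated queens. Of 16 other detoxification genes, GB43711 (Cyp9f2) passed as higher in both comparisons, GB50265 (GstD1) against virgin queens alone and GB42239 (Fmo-1) against CO2-treated queens alone. Of 15 other lipid genes, GB42219 (desat1) and GB40681 (CG31522) passed as higher against virgin queens, and 0 passed against CO2-treated queens. Of 9 other sugar genes, GB48937 (CG1213) passed as higher in both comparisons and GB49649 (CG11876) against virgin queens alone, while GB48936 (CG10960) passed as lower against CO2-treated queens. The medians of the fitted log2 fold changes of these other genes against virgin queens were 1.88 for carriers, 1.44 for detoxification, 1.63 for lipid and 1.93 for sugar genes, beside -0.08 over all genes. Of the 3 fat body genes GB51698 (Lsp2) passed as higher against virgin queens, with a median of 1.85. The lists of 11 immune and 13 muscle genes gave 0 genes of the set and 0 that passed, with medians of 1.53 and 1.78 against virgin queens, and of 6 genes of insulin signalling and transcription factors GB49662 (InR) passed as higher against virgin queens, with a median of 2.01. The immune list was fixed beforehand and did not hold GB48769, the gene of the set paired with a spätzle-type ligand. Nor did it hold the 6 genes of the set whose fly ortholog has no role described here, GB50509 (CG6124) among them. Whether any of these has an immune or hemocyte role was not assessed. The 0 of the immune list therefore covers the listed genes alone.

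Genes with neighbouring identifiers were compared too, since these numbers often follow position. Of the 36 genes, 4 had another gene of the set at the next number, GB42556 with GB42557 and GB43575 with GB43576. Of 59 other genes at a neighbouring number, 5 had all mated queens above the others, where 1.6% of all genes did. Of these neighbours 3 passed as higher against virgin queens, namely GB55264, GB46699 and GB52325, where 0.951% of all genes did, and GB55264 alone passed against CO2-treated queens, where 0.522% did.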

How the data were processed

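RNA from single queen brains was sequenced, with 4 mated, 4 CO2-treated and 4 virgin queens. Per the study's methods and labels, Trimmomatic trimmed the reads, SortMeRna removed those of ribosomal RNA, TopHat placed the rest on assembly 4.5 and SAMtools counted them per gene. Versions and strand are not given in the sources used here. The authors deposited raw read counts of 15314 genes, without normalization. A second deposited table of standardized values was not used.

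Genes with at least 10 counts in all were kept. TMM-normalized CPM, the 3 conditions that define the set, and quasi-likelihood F-tests on 12 queens in 3 groups (Benjamini-Hochberg adjustment over 13038 genes, threshold 0.05) came from edgeR 4.0.16 in R 4.3.3, with DESeq2 1.42.0 as an alternative. The script was tested on simulated data. Floors cover counting error only.

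The members and lists were chosen with earlier results of these data known. Genes given with a value in each queen include the 10 widest gaps, the 10 most abundant in mated queens, those of the set on role lists, those at neighbouring numbers and the 3 just inside or outside the gap. Of the 36 genes, 26 had a fly ortholog listed by the study and 11 a RefSeq match, 3 with a symbol. Protein features and genome positions were not analysed here. Alternatives were other scalings, filters, gaps and tests, a queen number block, each queen left out and, chosen after seeing the data, the name suffix br. Figures were drawn with Python 3.11.15 and matplotlib 3.10.9.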

Additional observations from a re-analysis of the deposited data

Results flagged for a closer look

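In 108 groups of 4 queens (36 genes in 3 treatments), 8 had 1 queen far from the other 3 by Dixon's criterion. Chance alone flags about 1 in 20 groups if values are normally distributed and groups are independent. CPM of genes that vary together need not meet this, so the 8 are not weighed against that rate. Virgin queen 6 stood above the other virgin queens in 4 of the 8. It had 45.1 CPM of GB46223 (Obp14), where the next virgin queen had 4.24 CPM. It had 4.09 CPM of GB55263 (CG5065), where the next had 0.618 CPM, and 2170 CPM of GB52324 (CSP3), where the next had 1019.9 CPM (CPM after TMM scaling). It also had 3.52 CPM of GB42607 (Cyt-b5), where the next had 0.899 CPM.

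In CO2-treated queens, queen 5 stood high in GB42556 at 38.3 CPM, where the next had 13.1 CPM, and queen 7 in GB48769 (CG14928) at 2.55 CPM, where the next had 1.06 CPM. Queen 1 stood low in GB47669 at 89.3 CPM, where the next lowest had 161 CPM. Among mated queens only queen 4 was set apart, in GB42607 at 13.8 CPM, where the next had 7.68 CPM.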

How the results depend on the processing

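The number of genes that met the conditions was 36. It was 22 with total counts in place of TMM factors, 65 at a narrower gap, 20 at a gap of 2 times, 34 to 147 with each queen left out in turn and 146 without the 4 queens with br in their names. DESeq2's size factors, no filter, a sum of more than 10 counts and no condition on overlap each gave 36, leaving GB49544 out of the library sizes gave 38, and a mean of at least 5 CPM gave 31. The quasi-likelihood test called 157 genes in mated against virgin, 86 in mated against CO2-treated and 2 in CO2-treated against virgin queens. DESeq2 called 640, 421 and 20 in the same comparisons, and edgeR's exact test 490, 287 and 17. With each queen left out these counts ranged over 28 to 279, 18 to 179 and 1 to 2. With total counts, 4398 genes (160 higher, 4238 lower) were called in mated against virgin queens, 124 higher and 33 lower being called with TMM, and 97 in mated against CO2-treated queens (24 higher, 73 lower, with 68 and 18 under TMM) and 0 in CO2-treated against virgin queens. The median of all genes then moved to -0.79 in mated against virgin and -0.67 in mated against CO2-treated queens. The causes of these changes were not tested.

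Of the 36 genes, 32 were called against virgin and 26 against CO2-treated queens. The range with each queen left out was 14 to 33 and 11 to 29. Total counts gave 34 and 17, DESeq2 gave 36 and 35. Without the 4 br queens, 97, 5 and 0 genes were called in the 3 comparisons, with 22 and 2 of the set. With br as a term of the fit, 255, 78 and 1 genes were called, with 34 and 25 of the set. Without the queens, only 2 CO2-treated queens remained. The median log2 ratio of CO2-treated to virgin means over the set, 0.07, ranged over -0.07 to 0.40 with each queen left out.

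Queen numbers name different animals, and 7 same-numbered pairs had deviations with a mean correlation of 0.173 (-0.284 to 0.514), beside -0.0286 in 41 other pairs. With the queen number as a replicate block, 177 genes were called in mated against virgin, 10 in mated against CO2-treated and 0 in CO2-treated against virgin queens, and 28, 3 and 0 of the set.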
